A study of Homo sapiens with 4 samples.

Results

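The genes described here are KLK2, KLK3, TMPRSS2, FOLH1, SLC45A3 and STEAP2, 6 of 20163 protein-coding genes, chosen by name as genes that are active in luminal cells of the prostate or respond to androgen. For each, H3K27ac peaks were taken from 4 deposited peak lists when they overlapped 1 kb either side of a GENCODE transcript start (promoter peaks), or the gene body widened by 50 kb and no such window of any protein-coding gene (distal peaks). The study profiled this histone mark by ChIP-seq in 4 established cancer cell lines, in order to examine predicted non-coding driver mutations. DU-145, from prostate, was grown in Eagle minimal essential medium, and COLO-205, from colon, in RPMI. The ovarian lines were OVCAR-3, grown in RPMI 1640 medium, and SKOV-3, grown in McCoy's 5a minimal essential medium. All media held FBS, no line had a treatment in the labels, and each line was 1 library precipitated with the same antibody. DU-145 is known as an androgen-independent line, and no androgen-dependent prostate line was analysed here.

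H3K27ac marks the flanks of active promoters and enhancers, where acetylation of lysine 27 on histone H3 goes with open chromatin and bound transcription factors. In the luminal epithelium of the prostate, androgen signalling acts through response elements in the promoters and distal enhancers of genes such as KLK3, together with the pioneer factor FOXA1 and the homeobox factor HOXB13. Prostate cancer lines that no longer depend on androgen often express little of these targets.

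The COLO-205 list held 85576 peaks over 30449707 bp, the DU-145 list 75468 over 39555267 bp, the OVCAR-3 list 76093 over 35949049 bp and the SKOV-3 list 14001 over 5393356 bp. Median fold over the local background was 4.73, 4.50, 5.37 and 5.35 in that order, and the median summit carried 24, 27, 27 and 30 stacked tags, a pileup solved from the deposited fold and −log10 p. The short SKOV-3 list makes any absence there weaker evidence than an absence elsewhere. With 1 library per line there was no replicate check and no test between lines, and fold and −log10 q are not scaled between libraries. Whether a missing peak reflects fewer cells with the mark or less mark per cell cannot be told apart.

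A promoter peak was present at 3 of the 6 genes in DU-145 (59.8% of all protein-coding genes), at 4 of 6 in COLO-205 (51.1% of all), at 3 of 6 in OVCAR-3 (60.5% of all) and at 1 of 6 in SKOV-3 (31.6% of all). The prostate line therefore did not hold more of these promoters than the colon line, and over 6 genes these counts are no result about the genes as a group. The members were not alike. SLC45A3 was marked in all 4 lines, a pattern of 5072 genes, and FOLH1 in none, a pattern of 5034. KLK2 and KLK3 were marked in COLO-205 and in no other list (1242 genes), TMPRSS2 in every list but that of SKOV-3 (2614 genes), and STEAP2 in DU-145 and OVCAR-3 (2012 genes). No member was marked in DU-145 alone. When each list was held to its 14001 strongest peaks, a promoter peak was left at TMPRSS2 and SLC45A3 in COLO-205 (21.8% of all protein-coding genes), at SLC45A3 in SKOV-3 (31.6%) and at 0 of the 6 genes in DU-145 (37.8%) and in OVCAR-3 (37.9%).

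**Figure D1:**
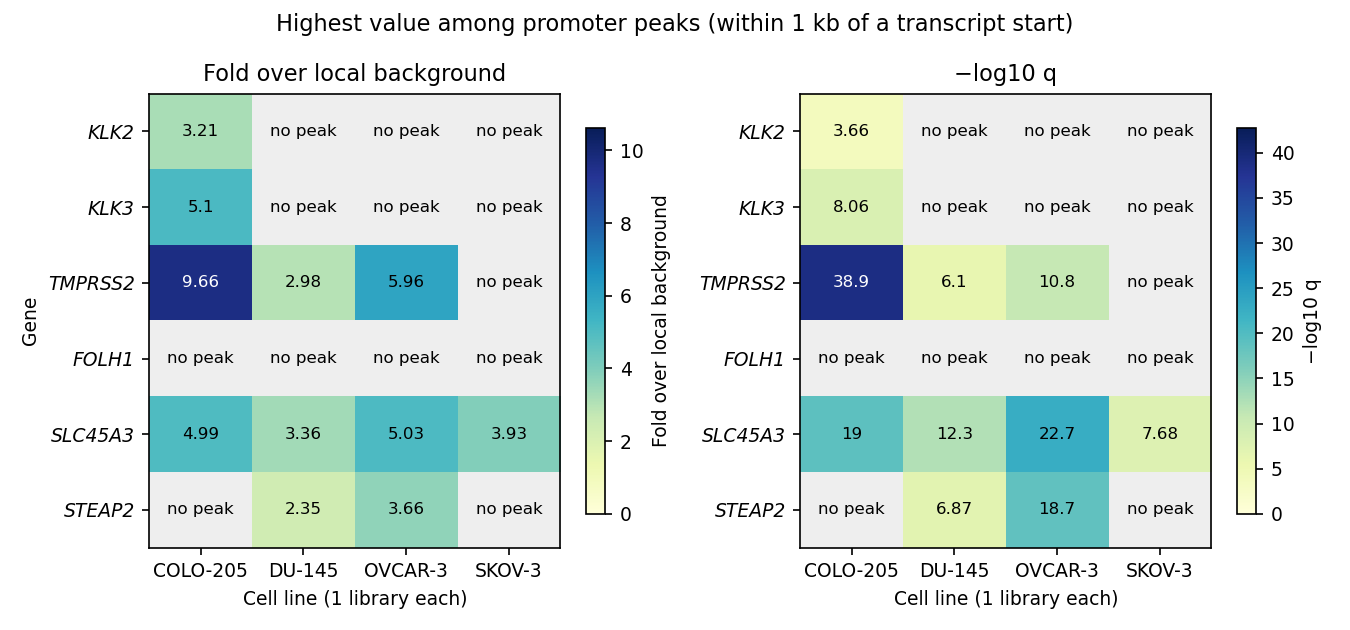
Highest fold over local background (left) and highest −log10 q (right) among the promoter peaks of each gene (rows) in each cell line (columns, 1 library each), with grey for no peak. TMPRSS2 in COLO-205 had the highest values, 9.66-fold and 38.9, and FOLH1 had no peak in any list.

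KLK3 encodes prostate-specific antigen, the serine protease of seminal fluid that is measured in blood, and KLK2 encodes its neighbour in the kallikrein cluster, a protease that can activate it. KLK3 (ENSG00000142515) lies at chr19:51358171-51364020 and KLK2 (ENSG00000167751) at chr19:51364824-51383823 on GRCh37, both on the plus strand. The RefSeq promoters of KLK3 (GRCh38.p14, chr19:50854665-50854914, plus strand) and KLK2 (GRCh38.p14, chr19:50873189-50873438, plus strand) are shown because both genes are textbook targets of androgen signalling and only one of the windows carried a peak over its start. The 250 bases before each start are printed, with capitals for matches to the motifs searched: AGAACA, the arm of the androgen response element, GGGCGG, bound by SP and KLF factors, and the TATA motif TATAAA, here on the other strand.
KLK3 promoter: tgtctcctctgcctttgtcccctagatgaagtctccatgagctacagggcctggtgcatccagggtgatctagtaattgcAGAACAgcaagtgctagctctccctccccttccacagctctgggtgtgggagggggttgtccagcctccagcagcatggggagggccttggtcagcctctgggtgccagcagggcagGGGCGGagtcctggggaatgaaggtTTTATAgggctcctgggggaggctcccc
KLK2 promoter: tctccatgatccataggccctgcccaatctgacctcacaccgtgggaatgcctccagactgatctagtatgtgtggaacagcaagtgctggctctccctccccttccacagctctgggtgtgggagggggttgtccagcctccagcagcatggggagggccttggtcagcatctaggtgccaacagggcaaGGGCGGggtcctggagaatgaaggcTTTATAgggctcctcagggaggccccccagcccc
Aligned end to end, the windows had 211 identical positions, 23 mismatches and 32 gap positions, an identity of 79.3%. AGAACA began 170 bases before the KLK3 start and had no exact match in the KLK2 window. At this place KLK3 reads AGAACAgcaagtgct, and KLK2 reads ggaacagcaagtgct, which differs in its first letter. Exact letters only were searched, so neither window was shown to lack a variant of the androgen response element. The full palindromic element, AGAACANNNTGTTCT, was in neither window and in 0.00285% of the 35114 RefSeq promoters of 300 bases, whereas 14.8% held AGAACA on either strand, 45.0% GGGCGG and 11.5% TATAAA. Both promoters were poor in CpG, with an observed over expected ratio of 0.07 for KLK3 and 0.11 for KLK2. Of the 3757 genes whose first listed RefSeq promoter had a ratio below 0.4, 23.1% had a promoter peak at any transcript start in DU-145. The share was 9.64% in SKOV-3, 25.3% in OVCAR-3 and 26.4% in COLO-205. It is a share of genes, because the peak may lie at another start than the promoter that was classed.

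The KLK3 peak of COLO-205 at chr19:51357957-51358199 spanned the start, with its summit 58 bp before it. Its fold was 5.10, its −log10 q 8.06 and its pileup 20 tags over a background of 3.1. In −log10 q, 24.4% of the marked promoters of COLO-205 were lower, and in fold 65.9% were. The KLK3 mark was thus at the start itself, whereas that of KLK2 was not. At chr19:51377787-51378049 in KLK2, COLO-205 had a peak of 3.21-fold, −log10 q 3.66 and 16 tags. Of the marked promoters of COLO-205, just 0.359% were lower in −log10 q and 8.75% in fold. The KLK2 summit was 1179 bp after the canonical start, and the peak was counted through an alternative start at 51378899, 850 bp away. The peak covered 73 coding bases of KLK2, and it was lost at a −log10 q of at least 5 or with a window of 500 bp.

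DU-145, OVCAR-3 and SKOV-3 had no promoter peak at KLK2 or KLK3. KLK2 had no distal peak in any list, and the distal peaks of KLK3 were 1 each in OVCAR-3 and DU-145 and 0 in COLO-205 and SKOV-3. Both KLK3 peaks stood at the outer edge of its window. The DU-145 peak at chr19:51308425-51308675, 3.25-fold with a −log10 q of 11.0, ended 49496 bp before the start. The OVCAR-3 peak at chr19:51307445-51308174, 9.38-fold with a −log10 q of 61.6, ended 49997 bp before it, covered exons of the pseudogene C19orf48P and overlapped peaks of the other 3 lines that lay outside the window. The stretch from 3 to 5 kb upstream of KLK3, where its known androgen-responsive enhancer lies, held no peak in any of the 4 lists.

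The 15 kallikrein genes span 265101 bp, at chr19:51322402-51587502. Within these bounds COLO-205 had 11 peaks of 3.21- to 5.91-fold, OVCAR-3 5 peaks of 2.44- to 11.5-fold, and DU-145 and SKOV-3 0 each. The KLK2 and KLK3 peaks were thus not the only COLO-205 peaks in the cluster, while the OVCAR-3 peaks lay in the part away from these genes. Of the other 13 kallikreins, 6 had a promoter peak in COLO-205 (51.1% of all genes), 3 in OVCAR-3 (60.5%) and 0 in both DU-145 (59.8%) and SKOV-3 (31.6%), so the COLO-205 count was near the share of all genes. The strongest in OVCAR-3 was KLK8 at 11.5-fold and a −log10 q of 56.2, named after its value was seen.

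**Figure D2:**
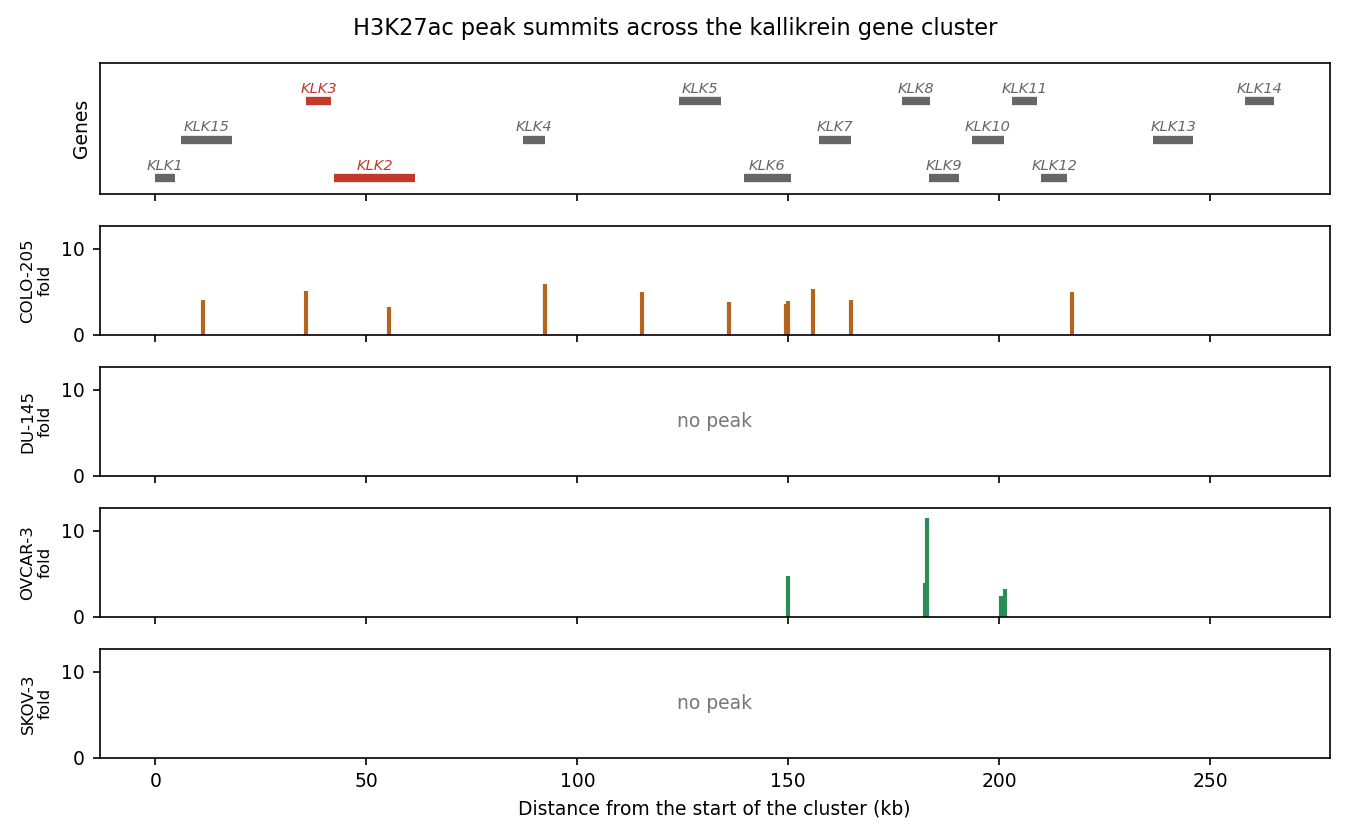
Genes of the kallikrein cluster (top, KLK2 and KLK3 in red) and the summits of H3K27ac peaks in each line, against distance from the start of the cluster in kb, with stick height as fold over local background. COLO-205 had 11 peaks across the cluster, OVCAR-3 had 5, and DU-145 and SKOV-3 had 0.

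TMPRSS2 (ENSG00000184012, chr21:42836227-42903043, minus strand) encodes a type II transmembrane serine protease of epithelial surfaces, and its androgen-responsive promoter is the usual fusion partner of ERG in prostate cancer. Its canonical start is at 42880085, and the annotation holds a first start 22958 bp further upstream, at 42903043. In COLO-205 the canonical start stood between 2 strong peaks. One at chr21:42880121-42880667, just upstream, was 9.66-fold with a −log10 q of 38.9 and 62 tags over a background of 5.5. The other, at chr21:42878795-42880052, ran for 1258 bp downstream of it at 6.39-fold and a −log10 q of 23.9. The upstream peak was the strongest promoter mark of the 6 genes in the 4 lists, and 94.6% of the marked promoters of COLO-205 were below it in −log10 q. A further COLO-205 peak near the first start, at chr21:42901830-42902051, was 5.01-fold with a −log10 q of 10.1.

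DU-145 had a single TMPRSS2 promoter peak, at chr21:42879255-42879523, with a fold of 2.98, a −log10 q of 6.10 and 33 tags over a background of 10.4. It lay inside the broad downstream peak of COLO-205, its summit 639 bp after the canonical start. The annotated start nearest to it was another protein-coding one, at 42879627, 104 bp from the DU-145 peak and inside that of COLO-205. In OVCAR-3 the canonical start had no peak, and the mark was at the first start instead, at chr21:42902918-42903185, with a fold of 5.96, a −log10 q of 10.8 and 22 tags over 2.9. SKOV-3 had no TMPRSS2 peak. The lines therefore differed in where the TMPRSS2 mark stood. DU-145 had it downstream of the canonical start and closest to the start at 42879627, and OVCAR-3 had it at the first start. COLO-205 had it around the canonical start, over the start at 42879627 and, more weakly, near the first. Of the marked promoters, 3.01% in DU-145 and 10.2% in OVCAR-3 were lower in −log10 q, and 5.59% and 34.1% in fold. The prostate line thus had TMPRSS2 near the bottom of its range and the colon line near the top.

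Distal peaks within 50 kb of TMPRSS2 numbered 2 in DU-145, 19 in COLO-205, 10 in OVCAR-3 and 0 in SKOV-3. At least as many were found for 6.57% of genes in COLO-205, 51.1% in DU-145 and 13.3% in OVCAR-3, against medians over all genes of 2, 2 and 1. In COLO-205, 13 of the 19 lay inside the gene and 6 upstream, with folds from 2.66 to 7.17 and pileups from 17 to 33 tags. The highest fold, 7.17 with a −log10 q of 17.4, belonged to the outermost peak at chr21:42952747-42953012, which covered an exon of the long non-coding RNA PCSEAT. In OVCAR-3, 6 of the 10 lay inside the gene, 2 upstream and 2 downstream, with folds from 3.35 to 5.83. The DU-145 peaks were both outside the gene, 5.10-fold at chr21:42819616-42819977, in an exon of the neighbour MX1, and 3.53-fold at chr21:42928234-42928481.

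When overlapping peaks of the lines were joined, 23 distal places at TMPRSS2 were marked in 1 line and 4 in both COLO-205 and OVCAR-3. Upstream of the first start they were chr21:42907808-42908369, at 5.79-fold in COLO-205 and 4.10-fold in OVCAR-3, and chr21:42908529-42908932, at 5.28-fold and 5.43-fold. Within the gene they were chr21:42850043-42850409, at 2.98-fold and 4.05-fold, and chr21:42852785-42853016, at 5.92-fold and 5.83-fold. None of the 4 overlapped an annotated exon, and DU-145 and SKOV-3 had no peak at any of them. The stretch from 12 to 15 kb upstream of the canonical start, where an androgen-responsive enhancer of TMPRSS2 is known from prostate cells, met 2 peaks in COLO-205 and 0 in each of the other 3 lists. They were chr21:42892847-42893168, 6.71-fold with a −log10 q of 12.1, and chr21:42895079-42895314, 5.28-fold with 11.7, which reached the far edge of the stretch. The prostate line thus had no TMPRSS2 peak there, whereas the colon line did.

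**Figure D3:**
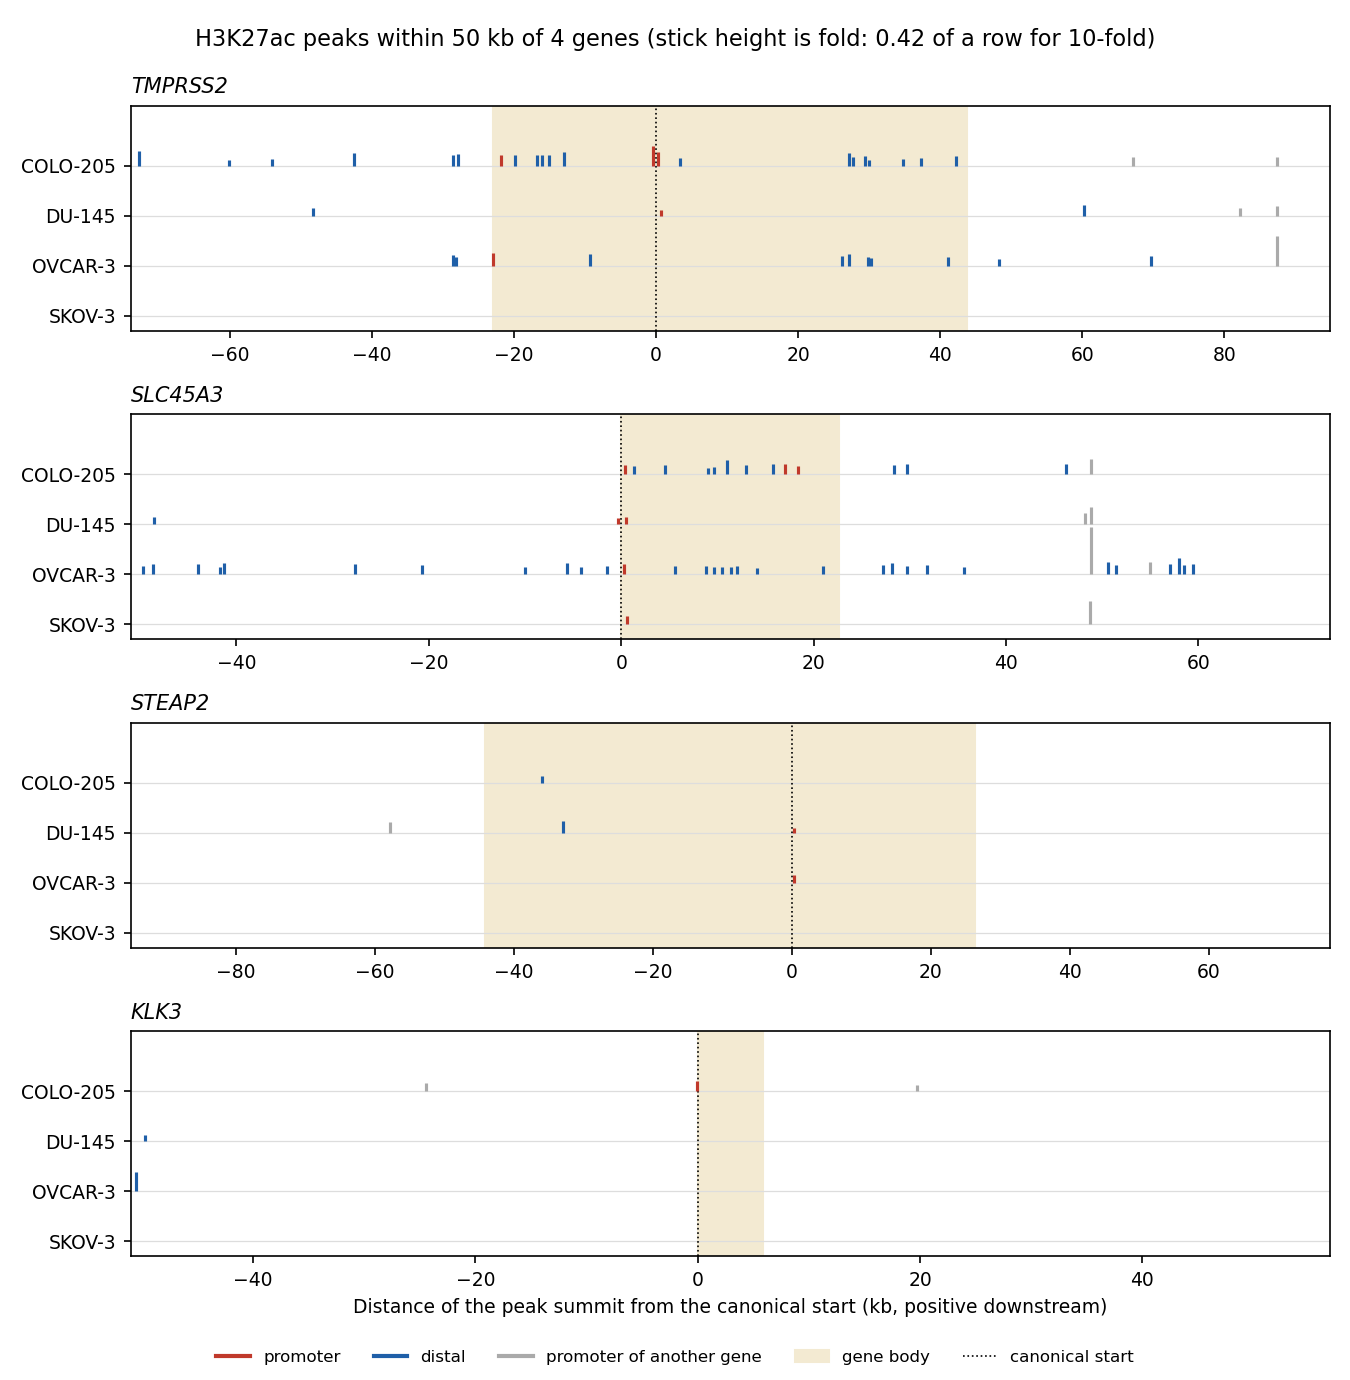
Peaks in the windows of TMPRSS2, SLC45A3, STEAP2 and KLK3, by distance of the summit from the canonical start in kb (positive downstream) and by line, with stick height as fold over local background. Red marks promoter peaks, blue distal peaks and grey peaks at promoters of other genes. COLO-205 had 19 distal peaks at TMPRSS2 and OVCAR-3 30 at SLC45A3, against 2 and 1 in DU-145.

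FOLH1 (ENSG00000086205, chr11:49166644-49230190, minus strand) encodes prostate-specific membrane antigen, a glutamate carboxypeptidase used as an imaging target in prostate cancer. No line had a promoter peak or a distal peak at FOLH1, and the gene lay in a sparse region. Within 1 Mb of it there were 0 peaks in DU-145, 14 in COLO-205, 9 in OVCAR-3 and 2 in SKOV-3, where the medians over all genes were 63, 56, 57 and 13. Of its body, 98.8% aligned at an identity of at least 95% to the neighbourhood of the copy FOLH1B on the same chromosome (chr11:89372405-89431767). Reads from such sequence are hard to assign to one of the copies, so an absence of mark and a loss of assignable reads cannot be told apart at FOLH1. At FOLH1B and within 50 kb of it, OVCAR-3 had 1 peak and the other 3 lines 0.

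SLC45A3 (ENSG00000158715, chr1:205626979-205649637, minus strand) encodes prostein, a membrane transporter of the solute carrier 45 family that is abundant in prostate epithelium. Its promoter, at chr1:205648535-205650043 when the peaks of all lines are joined, was the one promoter among the 6 genes that was marked in all 4 lists. Over the canonical start COLO-205 had a peak of 4.65-fold and a −log10 q of 18.5, with 57 tags over 11.5. OVCAR-3 had one of 1325 bp at 5.03-fold and 22.7, with 62 tags over 11.5. The DU-145 mark was split in 2 peaks on either side of the start, 3.36-fold with a −log10 q of 12.3 downstream and 3.14-fold with 7.57 upstream. In SKOV-3 a peak of 350 bp, 400 bp after the start, had 3.93-fold, a −log10 q of 7.68 and 30 tags over 6.9.

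The share of marked promoters below SLC45A3 in −log10 q was 22.5% in DU-145, 15.4% in SKOV-3, 28.5% in OVCAR-3 and 73.0% in COLO-205, so the shared mark was weak in 3 of the 4 lines. In COLO-205 this rank was that of a further, slightly higher peak at an alternative start inside the gene, at chr1:205631853-205632801 with a fold of 4.99 and a −log10 q of 19.0, and no other line had a peak there. The alternative start belongs to a transcript with no defined coding sequence. The peak covered 786 coding bases of SLC45A3 in its 949 bp, so its rank is not that of the canonical promoter. The highest promoter peak of ELK4, an ETS factor gene in the same window, was above that of SLC45A3 in each of the 4 lines, with a −log10 q of 64.9 in DU-145, 39.6 in COLO-205, 252 in OVCAR-3 and 56.7 in SKOV-3. Shown here are the RefSeq promoter of SLC45A3 (GRCh38.p14, chr1:205680510-205680759, minus strand), with GGGCGG on either strand in capitals, and 300 bases of GRCh37 centred on the SKOV-3 summit (chr1:205648901-205649200, minus strand), where all 4 lines carried the mark, with the AP-1 motif TGANTCA in capitals.
SLC45A3 promoter: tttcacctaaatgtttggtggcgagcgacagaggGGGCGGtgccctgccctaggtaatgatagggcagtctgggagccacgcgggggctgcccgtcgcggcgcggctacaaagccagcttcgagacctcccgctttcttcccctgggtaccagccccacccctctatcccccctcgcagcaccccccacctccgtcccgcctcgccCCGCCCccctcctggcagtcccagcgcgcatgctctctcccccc
SLC45A3 first intron: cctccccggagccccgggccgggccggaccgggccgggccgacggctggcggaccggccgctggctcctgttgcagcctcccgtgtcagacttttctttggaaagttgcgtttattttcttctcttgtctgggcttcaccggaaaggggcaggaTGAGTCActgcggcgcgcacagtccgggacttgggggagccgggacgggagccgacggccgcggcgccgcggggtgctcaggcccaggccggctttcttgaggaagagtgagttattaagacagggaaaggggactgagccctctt
The promoter had a GC content of 69.0%, a CpG ratio of 0.75 and 2 GGGCGG matches, and matched none of the other motifs searched. The intronic window overlapped no exon. Its AP-1 match was one that 4.71% of the summit windows of SKOV-3 held, and 6.79% of those of DU-145.

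SLC45A3 had 1 distal peak in DU-145, 10 in COLO-205, 30 in OVCAR-3 and 0 in SKOV-3, and at least as many were found for 63.4%, 15.8% and 3.74% of genes in the lists with any. The COLO-205 peaks were 7 inside the gene and 3 beyond its end, with the highest at chr1:205638520-205639393, 6.90-fold with a −log10 q of 25.2. In OVCAR-3, 8 were inside the gene, 11 upstream and 11 beyond its end. The highest was at chr1:205591530-205591795, 7.60-fold with a −log10 q of 19.0. The other OVCAR-3 peaks were modest, and the median fold of the 30 was 4.25. OVCAR-3 also had 251 peaks within 1 Mb of SLC45A3, where the median over genes was 57, and 12.0% of its list lay on chromosome 1, compared with 6.75% in COLO-205, 6.96% in DU-145 and 8.70% in SKOV-3. The part of this regional abundance in the count was not tested.

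Of the distal places at SLC45A3, 29 were marked in 1 line and 6 in more. COLO-205 and OVCAR-3 shared 5 of them, which is 5 of the 10 COLO-205 peaks and 5 of the 30 OVCAR-3 peaks. The lone DU-145 peak, at chr1:205698090-205698337 with a fold of 3.53 and a −log10 q of 6.20, lay 48453 bp upstream and overlapped an OVCAR-3 peak of 4.77-fold. No distal place was shared by DU-145 and COLO-205.

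STEAP2 (ENSG00000157214, chr7:89796904-89867451, plus strand) encodes a six-transmembrane metalloreductase of the secretory and endocytic pathways. DU-145 and OVCAR-3 had nearly the same promoter peak, at chr7:89841209-89841495 and chr7:89841206-89841498, with summits 254 and 272 bp after the canonical start. The fold was 2.35 in DU-145, with a −log10 q of 6.87, and 3.66 in OVCAR-3, with a −log10 q of 18.7. COLO-205 and SKOV-3 had no promoter peak. Tags were many at this spot, 60 in DU-145 and 75 in OVCAR-3, but the local background was high as well, at 25 and 19.7. A background at least this high was found at 0.323% of the DU-145 peaks and 0.418% of the OVCAR-3 peaks. Just 0.314% of DU-145 peaks had a lower fold than the STEAP2 promoter peak, whereas 24.6% had a lower −log10 q. The STEAP2 promoter peak of DU-145 thus rests on a small excess over an unusually high background, and what raised that background was not tested.

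The STEAP2 peak with the highest fold in the 4 lists was distal and in DU-145, at chr7:89807945-89808205, with a fold of 5.59, a −log10 q of 13.6 and 32 tags over 4.9. It lay inside the gene, 11041 bp after the first start, in no annotated exon, and no other line overlapped it. Its 261 bases (GRCh37, plus strand) are shown as the one DU-145 distal peak that lay inside a member gene, with capitals for TATAAA and the arm AGAACA.
STEAP2 distal peak: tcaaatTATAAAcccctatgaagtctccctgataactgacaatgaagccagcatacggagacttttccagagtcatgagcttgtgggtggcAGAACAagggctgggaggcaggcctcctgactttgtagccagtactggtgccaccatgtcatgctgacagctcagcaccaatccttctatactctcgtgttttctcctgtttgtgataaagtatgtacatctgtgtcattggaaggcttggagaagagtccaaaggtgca
In 300-base windows centred on summits, AGAACA was held by 11.3% of the DU-145 list and TATAAA by 7.61%. COLO-205 had 1 other distal peak, 3.30-fold at chr7:89805032-89805354, whereas OVCAR-3 and SKOV-3 had 0. Peaks were scarce around STEAP2 in every list: within 1 Mb DU-145 had 5, OVCAR-3 5, COLO-205 4 and SKOV-3 0. Chromosome 7 held just 65 peaks, 0.464% of the SKOV-3 list, against 2.17% to 3.43% of the others, so the SKOV-3 value at STEAP2 says little.

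The neighbour STEAP1, a family member that is prominent in prostate cancer, had a promoter peak in DU-145 and in no other line, at 5.14-fold and a −log10 q of 11.0, above that of STEAP2. Of the 4 other STEAP genes, STEAP1, STEAP1B and STEAP3 were marked in DU-145 (59.8% of all genes), STEAP1B in OVCAR-3 (60.5%) and 0 in COLO-205 (51.1%) and SKOV-3 (31.6%). Of 8 other type II transmembrane serine proteases, relatives of TMPRSS2, 3 were marked in DU-145, 4 in COLO-205, 4 in OVCAR-3 and 0 in SKOV-3, against the same shares of all genes. CORIN was marked in DU-145 alone, at 2.58-fold, and the highest in DU-145 were ST14, or matriptase, and TMPRSS4, with −log10 q of 11.2 and 8.78.

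Over the 6 genes together there were 5 distal peaks in DU-145, 30 in COLO-205, 41 in OVCAR-3 and 0 in SKOV-3, covering 1370, 10196, 12703 and 0 bp. At least 1 distal peak was present at 4 of the 6 genes in DU-145 (63.4% of all genes), 3 of 6 in COLO-205 (73.6%), 3 of 6 in OVCAR-3 (59.2%) and 0 of 6 in SKOV-3 (21.8%). The totals of COLO-205 and OVCAR-3 came nearly all from TMPRSS2 and SLC45A3. These totals moved with the settings: DU-145 had 2 distal peaks within 25 kb, 14 within 100 kb and 10 when only the starts of the gene itself were left out. COLO-205 and OVCAR-3 had 27 each within 25 kb, and at a −log10 q of at least 10 COLO-205 had 11, OVCAR-3 9 and DU-145 2, so the order of OVCAR-3 over COLO-205 was not kept. With 14001 peaks in each list they had 4, 1 and 0. A peak of another line overlapped 1 of 5 in DU-145 (25.8% of all its distal peaks), 9 of 30 in COLO-205 (15.9%) and 11 of 41 in OVCAR-3 (28.6%). The median fold of the distal peaks was 3.53, 4.61 and 4.35 in these lists.

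**Figure D4:**
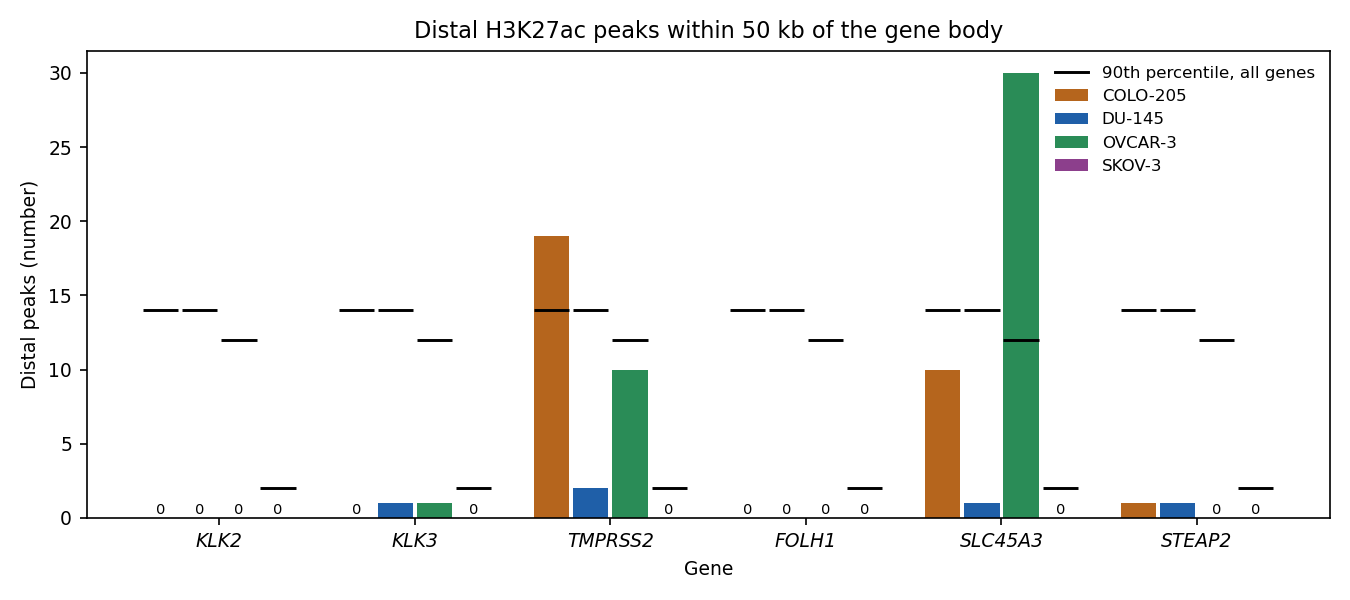
Distal H3K27ac peaks within 50 kb of each of the 6 genes (bars, 1 library per line), with the 90th percentile over all protein-coding genes of the same list as a black tick. TMPRSS2 in COLO-205, with 19, and SLC45A3 in OVCAR-3, with 30, stood above their ticks of 14 and 12, and every DU-145 bar was at 2 or below.

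No member peak held the full androgen response element, as exact letters, within 300 bases around its summit. Of all summit windows, 0.00133% held it in DU-145, 0.00234% in COLO-205, 0.00131% in OVCAR-3 and 0% in SKOV-3. At shares this low its absence from so few peaks is no result about these genes. The arm AGAACA was present at 1 of 9 member peaks in DU-145, 5 of 38 in COLO-205, 3 of 44 in OVCAR-3 and 0 of 1 in SKOV-3, where 11.3%, 10.2%, 11.3% and 9.58% of all summit windows held it. The FOXA motif TGTTTAC was at 1 of the OVCAR-3 peaks, near SLC45A3, and 0 of the others, where all summit windows of the lists held it at 1.34% to 1.64%. The GRHL motif AACCGGTT was at 0 of the member peaks in each list, and in all windows at 0.0316% in COLO-205 to 0.1% in SKOV-3. AP-1 matches were at 2 member peaks in DU-145 (6.79% of all windows), 3 in COLO-205 (4.57%), 2 in OVCAR-3 (6.35%) and 1 in SKOV-3 (4.71%). A match describes the letters and not the binding of a factor, and no match says only that the letters are not in the window.

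The protein-coding genes nearest to each member in promoter and distal coverage, over 8 values in the 4 lines, were DAPK2, MYH14 and PRAP1 for TMPRSS2 (Euclidean distance on the log2 scale 1.91 to 2.02), SLC41A3, ATAD3A and MIB2 for SLC45A3 (1.17 to 1.73) and SHC4, XRCC5 and ANKAR for STEAP2 (0.40 to 0.45). For KLK3 they were OR13C8, STK31 and PRR16 (0.18 to 1.67), and for KLK2 FTMT, CBLN2 and KRTAP4-11 (0.00 to 0.05). The close matches of KLK2 reflect that a single small peak describes it. FOLH1, with no peak, was not ranked.

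Of the 8 regulators of luminal genes, 5 had a promoter peak in DU-145 (59.8% of all genes), 4 in COLO-205 (51.1%), 5 in OVCAR-3 (60.5%) and 2 in SKOV-3 (31.6%), which is near the share of all genes in each list. FOXA1 and NR3C1, which encodes the glucocorticoid receptor, were marked in all 4 lines, and in DU-145 at 11.18-fold with a −log10 q of 71.9 and at 8.52-fold with 56.8. SPDEF, at 2.89-fold, was marked in DU-145 and no other line, and GATA2 in DU-145 had a −log10 q of 12.1.

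Of 16 other androgen-induced genes, the promoter peak was present at 13 in DU-145 (81.2%, and 59.8% of all genes), 10 in COLO-205 (62.5% and 51.1%), 11 in OVCAR-3 (68.8% and 60.5%) and 7 in SKOV-3 (43.8% and 31.6%), and whether these shares differ from those of the 6 members was not tested. PMEPA1, NDRG1, CAMKK2, ELL2, ACSL3 and HERC3 had it in all 4 lines. STEAP1 and C1orf116 had it in DU-145 alone. The highest in DU-145 were CAMKK2, FKBP5 and ELL2, with −log10 q of 52.0, 33.8 and 29.1.

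The counts of tissue markers stand against promoter peaks at 59.8% of all genes in DU-145, 51.1% in COLO-205, 60.5% in OVCAR-3 and 31.6% in SKOV-3. Simple epithelium genes were marked at 8 of 8 in COLO-205, DU-145 and OVCAR-3 and at 3 of 8 in SKOV-3 (KRT8, KRT18 and KRT19, in all 4 lines), and ELF3 led in DU-145 with a −log10 q of 56.5. Prostate basal genes were marked at 6 of 9 in DU-145, 4 in COLO-205, 6 in OVCAR-3 and 4 in SKOV-3, near the share of all genes in the first 3. KRT15, ITGA6 and ITGB4 had the mark in all 4 lines, ITGB4 and LAMB3 led in DU-145 with a −log10 q of 34.6 and 20.6, and the basal markers KRT5 and TP63 were without it in all 4. Neuroendocrine genes were marked at 0 of 7 in DU-145, 5 in COLO-205, 2 in OVCAR-3 and 0 in SKOV-3. Colon genes were marked at 2 of 10, 6, 2 and 1 in the same order, with LGALS4 among those in DU-145. Müllerian and ovarian carcinoma genes were marked at 5 of 8, 4, 8 and 2, with PAX8 in all 4 lines, and MUC16, WFDC2 and MSLN next to it in DU-145, where the count was near the share of all genes. Leukocyte genes were at 0 of 6 in 3 lines and at 1 in DU-145, CD14. PTPRC, the pan-leukocyte marker, was unmarked in all 4 lines.

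**Figure D5:**
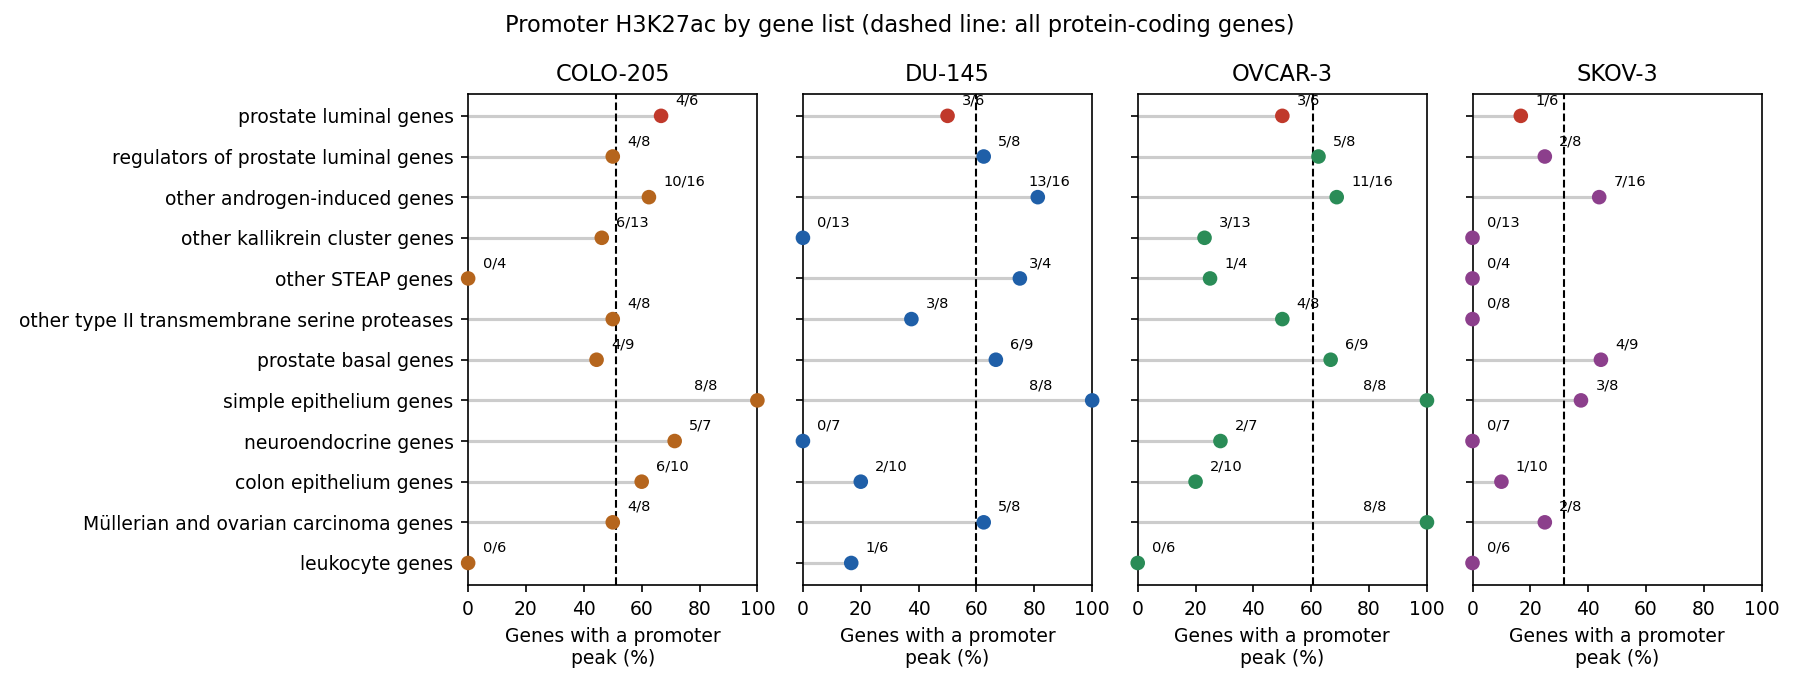
Share of the genes of each list with a promoter peak in each line (points, with counts beside them; 1 library per line), and the share of all protein-coding genes as a dashed line. The prostate luminal genes (red) stand at 4, 3, 3 and 1 of 6 from the left panel to the right, and the kallikreins and neuroendocrine genes at 0 in DU-145.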

How the data were processed

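H3K27ac ChIP-seq was analysed in 1 library each of the prostate line DU-145, the colon line COLO-205 and the ovarian lines OVCAR-3 and SKOV-3. By the submitters' notes and the methods, the authors mapped reads to hg19 with Bowtie2 2.1.0 and called peaks with MACS2 2.1.0.20150603 at a q threshold of 0.001. The deposited values are the score (10 times −log10 q), the fold, and the −log10 of p and q. The fold is the ratio of the summit pileup to its local background, with a pseudocount of 1 added to each. The printed tags over background therefore do not divide exactly to the printed fold. The authors' methods describe merging of peaks under 350 bp apart, which the deposited lists do not show; peaks were used unmerged. Promoter and distal peaks were assigned with GENCODE 44 lifted to GRCh37, at an overlap of at least 1 bp. The pileup was solved from fold and −log10 p by the Poisson formula of the caller and tested on simulated data. In the RefSeq promoter table (GRCh38.p14), 4 of the 6 genes were matched, without TMPRSS2 and FOLH1. The members and the 11 other gene lists were chosen with earlier results of these data known. From each list the genes named are those marked in DU-145 alone, those marked in all 4 lines and up to 4 with the highest −log10 q in DU-145, except some that are not reported; defining markers without a peak were named after their values were seen. Python 3.11.15, pandas 2.3.3, SciPy 1.17.1, Biopython 1.88, pyfaidx 0.9.0.4 and BLAST 2.17.0 were used. Mapped read counts were not used here, and the tags at each summit give the depth behind a peak.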

Additional observations from a re-analysis of the deposited data

How the results depend on the processing

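Of 32 values of promoter counts under other settings, 26 stayed within 1.5 times the count reported, and of 40 values of distal counts, 28 did. The distal values include those of SKOV-3, where the count reported was 0 and settings that only remove peaks could not move it. At a −log10 q of at least 10, the genes with a promoter peak were 2 in COLO-205, 1 in DU-145 and 0 in SKOV-3, and the distal peaks 11 in COLO-205, 2 in DU-145 and 9 in OVCAR-3. With every list held to 14001 peaks, the promoter counts were 2 in COLO-205, 0 in DU-145 and 0 in OVCAR-3, and the distal counts 4, 0 and 1. These settings keep fewer peaks by construction. At 25 kb from the gene body the distal count was 2 in DU-145 and 27 in OVCAR-3, and at 100 kb it was 14 in DU-145 and 1 in SKOV-3. When only a gene's own starts were excluded, it was 10 in DU-145 and 1 in SKOV-3. Merging, a threshold of 5 on −log10 q, a 50% overlap, protein-coding transcripts only, other promoter windows and the exclusion of starts of every gene type changed no count by more than 1.5 times. No paired analysis was possible because each line has a single library, and no result comes from a test. Weak peaks of under about 20 tags, as at KLK2, are close to the lowest pileups in the lists (12 in COLO-205), and the cause of any absence was not tested.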
